A study of Homo sapiens with 8 samples.

Results

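The MHC class II genes HLA-DMA, HLA-DMB, HLA-DOA, HLA-DRA, HLA-DPA1 and CD74 were examined for RFX7 binding nearby. These 6 of 20037 protein-coding genes were chosen as classical targets of RFX5, a relative of RFX7. The rule took listed peaks with a summit within 50 kb of either gene end, and absence was recorded as the distance to the nearest summit. The binding data came from ChIP-seq, which recovers protein-bound chromatin with an antibody, here against RFX7, and sequences its DNA. All samples were HCT116 cells, a colorectal carcinoma line of human origin. They received 10 µM Nutlin-3a, which stabilises p53 by blocking its inhibitor MDM2, or its solvent DMSO, for 24 h. Both treatments comprised 2 samples immunoprecipitated for RFX7 and 2 of input chromatin, 8 in all, and the data used here are 1 list of peaks per treatment, with 505 entries for DMSO and 622 for Nutlin-3a. The lists give no replicate values, so a difference between the treatments has no replicate error to be compared with, and none was tested.

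MHC class II molecules present peptides from endocytosed proteins to CD4 T cells. Professional antigen-presenting cells make them constantly, while most epithelial cells make them only after interferon-gamma. Their promoters share an X box, bound by the RFX complex of RFX5, RFXANK and RFXAP, and a Y box, an inverted CCAAT element bound by NF-Y. The co-activator CIITA is recruited by these factors and sets whether the genes are transcribed. RFX7 carries the same kind of winged-helix DNA-binding domain as RFX5.

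A single place on chromosome 6 accounted for every listed peak near these genes. In both lists, 3 of the 6 genes (HLA-DMA, HLA-DMB and HLA-DOA) had a summit within 50 kb, and in both lists it was the same peak. This peak lay inside BRD2, a gene of the class II region that encodes not an antigen-presentation protein but a bromodomain protein binding acetylated histones. HLA-DRA, HLA-DPA1 and CD74 had no summit within 50 kb in either list. Within 5 kb, 0 of the 6 had a summit.

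For scale, 2.03% of the 20037 protein-coding genes had a DMSO summit within 50 kb (407 genes) and 3.04% had a Nutlin-3a summit (609 genes). Taking both lists, the share was 3.37% within 50 kb and 1.21% within 5 kb. The 3 of 6 counted here cannot be read against these shares as 3 separate events, because they are 1 peak seen from 3 neighbouring genes.

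Promoter sequence was searched for X-box and Y-box letters at these genes, none of which had an RFX7 summit within 5 kb. Whether a match is a site that the RFX complex binds was not tested. RefSeq promoter windows (GRCh38.p14, from 250 bases before to 50 after an annotated start) were at hand for 5 of the 6 genes, with 2 windows for HLA-DPA1. The stretches below are 90 bases around a match to an X-box form, or around the CCAAT of CD74. They read 5′ to 3′ on the gene's own strand, which is the minus strand for all 5. Capitals mark the match to AGNNACNGA, a loose form of the X-box centre, and every match to ATTGG, the letters of the Y box, on either strand. A match on the other strand reads CCAAT and is not in the Y-box orientation.
HLA-DMA, chr6:32953136-32953225: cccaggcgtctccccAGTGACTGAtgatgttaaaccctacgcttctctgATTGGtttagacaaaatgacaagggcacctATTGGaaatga
HLA-DMB, chr6:32941042-32941131: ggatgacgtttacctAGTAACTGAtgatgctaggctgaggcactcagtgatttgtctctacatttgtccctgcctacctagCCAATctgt
HLA-DOA, chr6:33009618-33009707: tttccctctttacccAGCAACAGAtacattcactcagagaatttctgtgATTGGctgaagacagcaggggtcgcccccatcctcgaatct
HLA-DPA1, chr6:33073674-33073763: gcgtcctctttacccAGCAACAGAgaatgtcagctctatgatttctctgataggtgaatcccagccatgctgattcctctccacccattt
CD74, chr5:150412934-150413023: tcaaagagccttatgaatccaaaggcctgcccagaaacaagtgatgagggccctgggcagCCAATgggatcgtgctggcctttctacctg

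The RFX core GCAAC lay inside the X-box match of HLA-DOA and HLA-DPA1. In HLA-DOA it spanned bases -100 to -96 before the start, and in HLA-DPA1 bases -98 to -94 before the downstream of its 2 annotated starts. Both also matched the longer AGCAACNG. The X-box matches of HLA-DMA and HLA-DMB did not contain GCAAC, and the GCAAC found in the HLA-DMA window lay farther up, at -215 to -211. Further matches to the loose form lay nearer to or past the starts of HLA-DMB and HLA-DPA1 and are not in capitals. CD74 had neither GCAAC nor the loose X-box form in its window, which does not show that it lacks an X box.

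ATTGG was found on the gene's strand in HLA-DMA and HLA-DOA and on the other strand in HLA-DMB and CD74. The first ATTGG followed the X-box match after 25 bases in both HLA-DMA and HLA-DOA, and HLA-DMA held another after 55 bases. The one in HLA-DMB followed after 57 bases. In HLA-DPA1, neither window held ATTGG. After 25 bases, HLA-DMB read atttg and HLA-DPA1 atagg, each differing from ATTGG by a letter. How common such variants are was not counted.

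These letters are common. On either strand, GCAAC occurred in 33.6% and ATTGG in 34.6% of all 35116 windows of this length, AGCAACNG in 4.21% and the flanked Y box TGATTGG, which is present at HLA-DMA and HLA-DOA, in 6.95%. The loose form AGNNACNGA, picked after these sequences were seen, occurred in 15.3%. GTTNCCATG and GTTGCNATG, from the palindromic RFX motif, occurred in 1.71% and 1.34% of windows and in 0 of the 6 windows of the class II genes. ATTGG is part of TGATTGG, and GCAAC is part of AGCAACNG. A match describes the letters only and does not show a bound site.

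**Figure D1:**
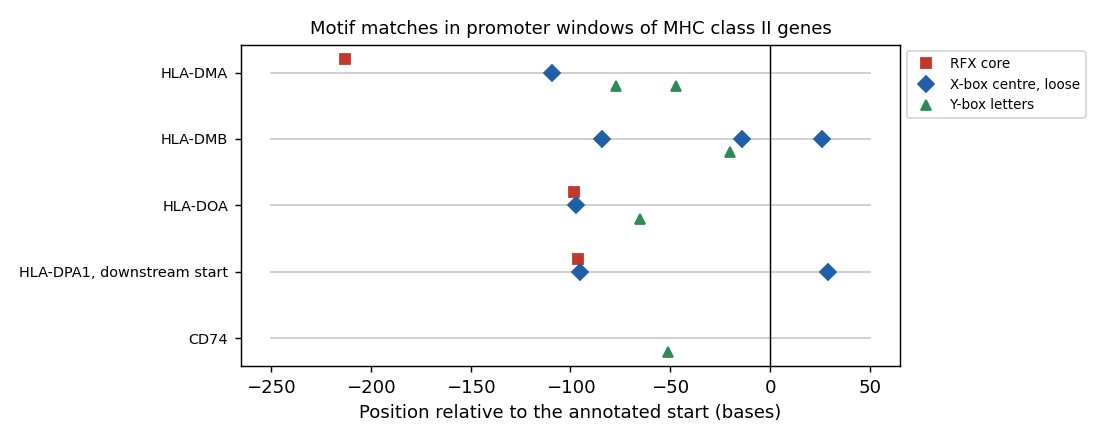
Positions of motif matches in RefSeq promoter windows; the x axis is the distance in bases from the annotated start and each row is 1 window. Squares are GCAAC, diamonds AGNNACNGA and triangles ATTGG (the Y-box letters), on either strand. The window of the upstream HLA-DPA1 start held none of the 3 and is not drawn. GCAAC and the X-box form coincide in HLA-DOA and HLA-DPA1 near base -100.

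The peak in BRD2 was listed at chr6:32971680-32972176 under DMSO, with its summit at 32971971, and at chr6:32971633-32972172 under Nutlin-3a, with its summit at 32971924. The entries overlapped by 493 bp, which is 99.2% of the DMSO entry and 91.3% of the Nutlin-3a entry, and their summits lay 47 bp apart. They therefore count as 1 shared locus, and no second entry was near any of the 6 genes. BRD2 (gene ID 6046) spans 32968594 to 32981505 on the plus strand. It has 4 annotated starts in the promoter table, and the summits lay 376 bp (DMSO) and 329 bp (Nutlin-3a) past the start at 32971595, and 1113 and 1160 bp before the next one, at 32973084. Whether the summit falls in an exon or an intron was not analysed here.

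The promoter window of the BRD2 start at 32971595 is the annotated window nearest to the summit. It reached 12 bp into the Nutlin-3a entry and did not reach the DMSO entry. The 250 bases before the start, on the plus strand, are shown because they border the peak on its upstream side. Capitals mark GCAAC and a match to GTTNCCATG, which reads as its reverse complement here.
BRD2, chr6:32971345-32971594: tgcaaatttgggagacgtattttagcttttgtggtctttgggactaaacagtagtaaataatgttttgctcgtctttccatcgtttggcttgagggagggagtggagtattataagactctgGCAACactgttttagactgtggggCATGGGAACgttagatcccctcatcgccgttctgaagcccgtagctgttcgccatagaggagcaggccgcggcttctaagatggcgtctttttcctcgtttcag
GCAAC spanned bases -128 to -124 and the GTTNCCATG match bases -104 to -96 from the start, both outside either entry. The sequence under the summit itself was not used here.

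By fold enrichment, the BRD2 entry was among the higher ones in each list. The authors' fold enrichment, their ratio of ChIP signal to background at the peak, was 6.33 in the DMSO list, against a list median of 2.86, and placed the entry 56 of 505. In the Nutlin-3a list it was 13.0, against a median of 3.28, and placed the entry 27 of 622. By −log10 q, the authors' significance after correction over the genome, the entry stood lower, at 221 of 505 (22.1) and 130 of 622 (73.7). The list medians of −log10 q were 17.2 (DMSO) and 22.6 (Nutlin-3a). These ranks place the peak within each list. They give no direction of change between treatments, since each list was called separately and neither carries replicate values.

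Reads behind the entry can be estimated from the authors' statistics. Under the formulas of MACS2, which the submitters' processing notes name, a fold and a p-value together fix the pileup (extended ChIP reads over the summit) and the local background expected there. For the BRD2 entry this gave a whole-number pileup of 53 over a background of 7.53 in the DMSO list and of 100 over 6.75 in the Nutlin-3a list. Over the entries with such a solution, the median background was 33.5 and 15.8. The lowest pileup among them was 13 and 11. Absence means only that no entry passed the authors' threshold.

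**Figure D2:**
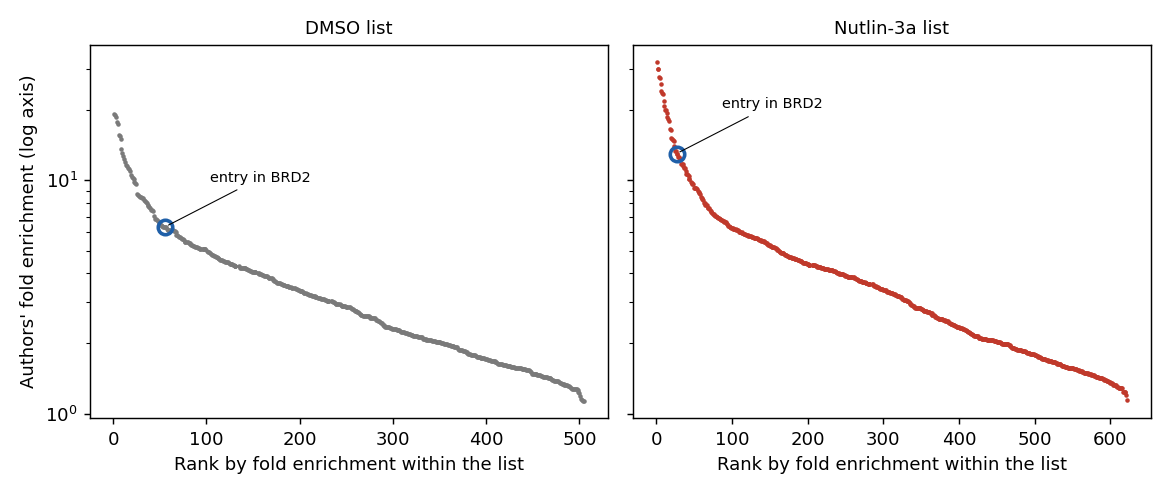
Fold enrichment of every entry (y axis, log scale, the authors' values) against its rank within its list (x axis), for DMSO (left) and Nutlin-3a (right). The circle marks the entry in BRD2, at 6.33 and rank 56 of 505 and at 13.0 and rank 27 of 622.

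HLA-DMA and HLA-DMB encode the chains of HLA-DM, which removes the invariant-chain fragment CLIP from class II molecules and helps to load peptides. HLA-DMA (gene ID 3108, chr6:32948618-32953097) was the gene nearest to the peak after BRD2. Its nearer end, which is also its start, lay 18.9 kb from the DMSO summit and 18.8 kb from the Nutlin-3a summit. HLA-DMB (gene ID 3109, chr6:32934636-32941028) lay beyond HLA-DMA on the same side, with its start 30.9 kb from either summit. Both genes are on the minus strand, so the peak lies upstream of both starts. The BRD2 gene begins 15.5 kb from the end of HLA-DMA, and the peak was 3.38 kb (DMSO) and 3.33 kb (Nutlin-3a) inside it.

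HLA-DOA (gene ID 3111, chr6:33004182-33009591) encodes the alpha chain of HLA-DO, which inhibits HLA-DM. It lay on the other side of BRD2, and its nearer end was 32.2 kb from the DMSO summit and 32.3 kb from the Nutlin-3a summit. That end is the far end of the gene from its start. The start was 37.6 kb (DMSO) and 37.7 kb (Nutlin-3a) from the summit, so the peak lies downstream of HLA-DOA. Among the 3 genes counted, HLA-DOA was thus the only one with the peak behind it, and the only one with the RFX core in its X-box match.

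HLA-DPA1 and HLA-DRA encode alpha chains of the peptide-presenting molecules HLA-DP and HLA-DR. HLA-DPA1 (gene ID 3113, chr6:33064569-33080748) was the nearest gene outside the 50 kb limit, with its nearer end 92.6 kb from the same BRD2 peak in both lists. Its annotated start with the X-box match was 101.7 kb away. HLA-DRA (gene ID 3122, chr6:32439887-32445046) lay on the other side, and its nearest summit in either list was again the BRD2 peak, at 526.9 kb. Within the set, HLA-DOA was therefore the farthest of the genes inside the limit and HLA-DPA1 the nearest of those outside. Both lay on the same side of the peak, and neither was close to the limit itself.

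CD74 (gene ID 972, chr5:150401639-150412910) encodes the invariant chain, which occupies the peptide groove and guides class II molecules to endosomes. It lies on chromosome 5, away from the other genes. Its nearest summit was 13373.8 kb away in the DMSO list and 9675.6 kb away in the Nutlin-3a list, and these were different entries, the first nearest to MAT2B and the second to ZMAT2. Of all protein-coding genes, 77.3% were closer to a DMSO summit than CD74 and 81.6% were closer to a Nutlin-3a summit. For HLA-DRA the same shares were 11.7% and 16.5%, and for HLA-DPA1 3.03% and 4.63%. They were 1.20% and 1.73% for HLA-DMA, 1.53% and 2.25% for HLA-DMB, and 1.58% and 2.31% for HLA-DOA. The 5 genes on chromosome 6 owe these positions to 1 peak.

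**Figure D3:**
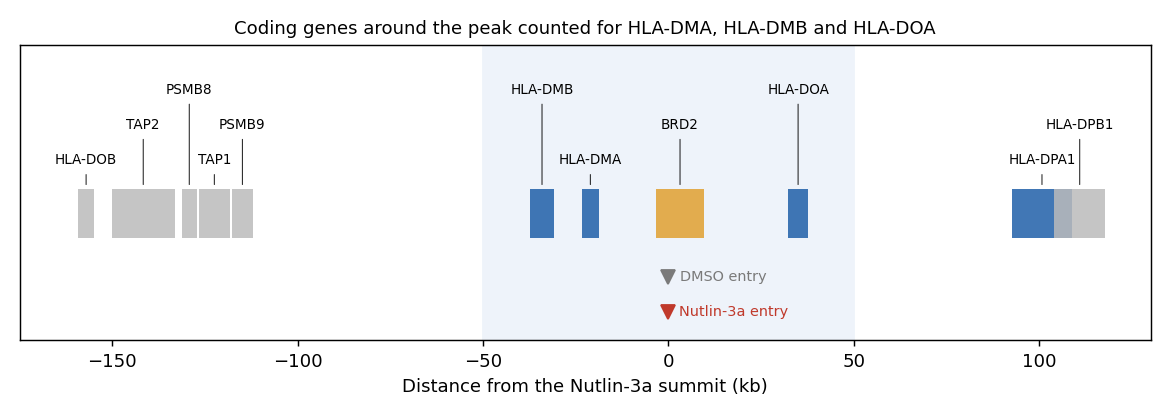
Map of the class II region around the BRD2 peak, drawn to scale; the x axis is the distance in kb from the Nutlin-3a summit. Blue bars are class II genes of the set, orange is BRD2, grey bars are other coding genes, triangles are the listed entries and the shaded band is 50 kb to either side. HLA-DMB, HLA-DMA and HLA-DOA fall in the band, HLA-DPA1 does not, and no other entry lies in the drawn stretch.

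**Figure D4:**
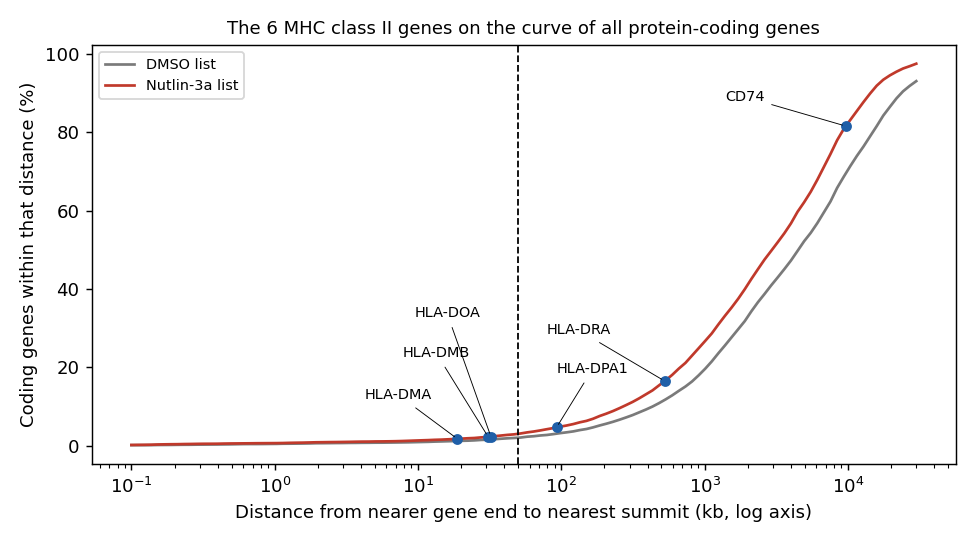
Percentage of all protein-coding genes with a summit within a given distance (y axis) against that distance in kb (x axis, log scale), for each list. Points are the 6 class II genes at their Nutlin-3a distances, and the dashed line is the 50 kb limit. HLA-DMA, HLA-DMB and HLA-DOA lie left of the line, and CD74 lies far right.

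An entry counted for several genes was not rare. Within 50 kb of the BRD2 summit, 4 coding genes had an end: BRD2, HLA-DMA, HLA-DMB and HLA-DOA. As many or more genes had an end that near to 42 of 505 DMSO entries (8.32%, 95% Wilson interval 6.21 to 11.1%) and 63 of 622 Nutlin-3a entries (10.1%, 7.997 to 12.7%). In contrast, 296 DMSO and 338 Nutlin-3a entries had no end of a coding gene within 50 kb. An entry deep inside a long gene can be among these, so they are not all far from genes.

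The remaining class II genes were HLA-DRB1, HLA-DRB5, HLA-DQA1, HLA-DQA2, HLA-DQB1, HLA-DQB2 and HLA-DPB1, whose products present peptides, and HLA-DOB, the beta chain of HLA-DO. None of these 8 had a summit within 50 kb in either list, against 2.03% (DMSO) and 3.04% (Nutlin-3a) of all coding genes. A list of 8 is too short to resolve shares this small. For all 8 the nearest summit was the BRD2 peak, and their distances ran from 104.0 kb for HLA-DPB1 to 441.7 kb for HLA-DRB5 in the DMSO list. Of 128 coding genes between HLA-F and HLA-DPB1, the stretch that holds the class I and class II genes, 11 (8.59%, against 2.03% of all coding genes) had a DMSO summit within 50 kb and 7 (5.47%, against 3.04%) a Nutlin-3a summit. The 11 genes lay around 3 places and the 7 around 2, so these counts too hold neighbours that share a peak.

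Of 8 regulators of class II genes, only RFX5 had a summit within 50 kb. That is 12.5% in each list, against 2.03% (DMSO) and 3.04% (Nutlin-3a) of all coding genes. The others tested were CIITA, RFXANK, RFXAP, the NF-Y subunits NFYA, NFYB and NFYC, and CREB1, which binds next to the X box. The RFX5 summit lay 76 bp before the gene in the DMSO list (fold enrichment 8.51, rank 29) and 21 bp before it in the Nutlin-3a list (20.1, rank 12). The promoter window that holds it is shown to set a promoter with a listed peak beside those of the class II genes, as the 120 bases before the start on the minus strand, with GCAAC and ATTGG (on the other strand) in capitals.
RFX5, chr1:151347253-151347372: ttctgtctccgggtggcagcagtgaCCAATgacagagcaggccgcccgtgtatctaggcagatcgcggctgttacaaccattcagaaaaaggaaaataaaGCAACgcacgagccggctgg
GCAAC spanned bases -20 to -16 there and the ATTGG match bases -95 to -91. Farther up, that window held TGATTGG at -177 to -171, on the other strand. CIITA was 9039.6 kb from the nearest DMSO summit and 2192 kb from the nearest Nutlin-3a summit. RFXANK was 183.8 and 183.7 kb away, from a peak beside GATAD2A.

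Among 4 genes of class II antigen processing, IFI30, a lysosomal thiol reductase, had a summit within 50 kb, at 16.7 kb in the DMSO list and 16.9 kb in the Nutlin-3a list. As at HLA-DMA, another gene was nearer to that summit, here PIK3R2 at 3.91 and 3.76 kb. The proteases CTSS, CTSL and LGMN had none. Of 13 genes for class I molecules and their loading, 0 had a summit within 50 kb in either list. Over all coding genes the shares were 2.03% (DMSO) and 3.04% (Nutlin-3a). Lists of 4 and 13 genes are too short to resolve shares this small.

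**Figure D5:**
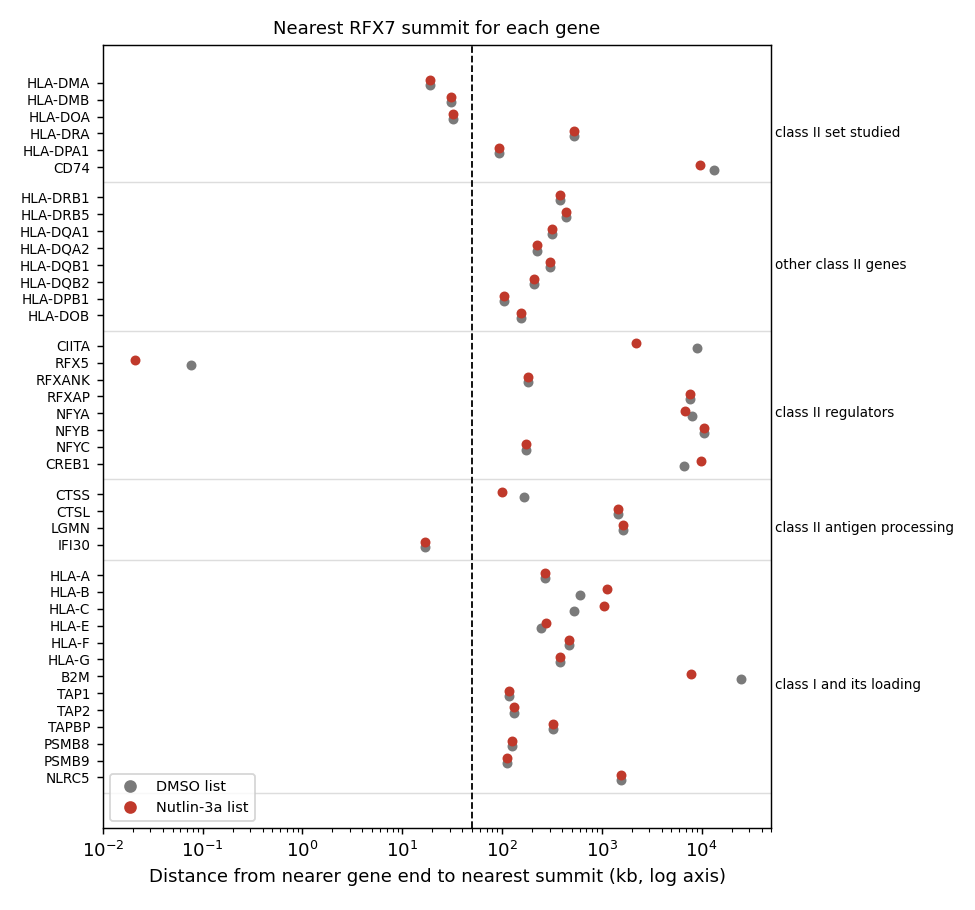
Distance from the nearer gene end to the nearest summit (x axis, kb, log scale) for each gene, grouped by list of genes; grey points are the DMSO list and red points the Nutlin-3a list, and the dashed line is 50 kb. RFX5, IFI30, HLA-DMA, HLA-DMB and HLA-DOA lie left of the line in both lists.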

How the data were processed

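Each treatment has 1 narrowPeak list, deposited by the authors. Its columns hold a fold enrichment (a ratio), −log10 p and −log10 q per peak, and a score, all as deposited by the authors, with the score not used. Whether replicates were pooled is not given in the sources used here, nor is the aligner. The submitters' processing notes name MACS2 2.2.7.1, bedtools 2.29.2, Trimmomatic 0.39, SAMtools 1.10 and the build hg38, without roles. Read totals were not at hand, so sequencing depth is unknown.

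Summit positions were compared with protein-coding genes of RefSeq (GRCh38.p14, 20037 symbols on chromosomes 1 to 22, X and Y). Distance runs from the summit to the nearer gene end. An overlap of 1 bp or more made entries shared. Pileup was solved from fold and p, and a solution within 0.02 of a whole number was accepted (79.4% of the DMSO list and 64.1% of the Nutlin-3a list). Motifs were searched on both strands of 35116 promoter windows. Wilson intervals cover counting error only. Scripts (Python 3.11.15, scipy 1.17.1) were tested on simulated data. Named genes were all 6 genes, fixed comparison lists and the coding genes near their peaks. Genes, lists and most motifs were chosen with earlier results of these data known.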

Additional observations from a re-analysis of the deposited data

How the results depend on the processing

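No paired analysis was possible because the 2 peak lists carry no replicate values, so no replicate could be left out either. The count of class II genes with a summit moved with the distance limit and with no other alternative tried. In each list and in both together it was 0 at 5 kb, with 0 loci, and 1 at 25 kb (HLA-DMA), and at 100 and 250 kb it was 4, with HLA-DPA1 added. It stayed 3, from 1 locus, with the peak midpoint, with any base of the entry, at −log10 q of at least 5 or 10, and with distances from annotated starts, where HLA-DRA was not included. The locus was also shared with 50% overlap and with summits within 100 bp. The percentage of all coding genes near a DMSO or Nutlin-3a summit was 0.764 and 1.08 at 5 kb, 3.21 and 4.88 at 100 kb, and 1.28 and 2.29 at −log10 q of at least 10. On the gene's strand alone, the percentage of promoter windows with a match was 18.3 for GCAAC, 2.03 for AGCAACNG, 0.883 for GTTNCCATG, 0.655 for GTTGCNATG, 20.3 for ATTGG and 3.71 for TGATTGG, as fewer strands are searched. Replacing AGCAACNG by AGNNACNGA, chosen after seeing the data, gave 15.3. Depth per sample is unknown, so an absent peak cannot be told from one too weak to list.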

Other observations

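Farther up chromosome 6, among class I genes, the lists held other entries. A peak beside TRIM26, an E3 ubiquitin ligase gene, was in both lists, with its summit 160 bp (DMSO) and 90 bp (Nutlin-3a) from the gene's end. Its fold enrichment was 4.06 (rank 150 of 505) and 6.95 (rank 81 of 622). The DMSO list alone held 3 entries within 1 kb of both FLOT1 and IER3, with fold enrichments of 2.91, 3.06 and 3.74. Whether those differ between treatments was not tested.

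Of 105 promoter windows that held an RFX7 summit in either list, 76 had GCAAC (72.4%) and 81 had ATTGG (77.1%), against 33.6% and 34.6% of all windows. AGCAACNG, as at HLA-DOA and HLA-DPA1, was in 26 of them (24.8%), against 4.21% of all windows, and TGATTGG in 44 (41.9%), against 6.95%. The loose form AGNNACNGA was in 16 (15.2%), against 15.3%, GTTNCCATG, as beside the BRD2 peak, in 3 (2.86%), against 1.71%, and GTTGCNATG in 10 (9.52%), against 1.34%. In the other direction, 0.299% of all windows held a summit. The share was 1.76% of the 1479 windows with AGCAACNG, 0.644% of those with GCAAC and 0.299% of those with AGNNACNGA. It was 2.13% of the windows with GTTGCNATG, 1.803% with TGATTGG, 0.666% with ATTGG and 0.5% with GTTNCCATG. AGCAACNG thus did not have the highest share. Base composition and the sharing of a gene's windows were not tested.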
